A study of Mus musculus with 10 samples.

Results

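Complement and coagulation are cascades of plasma proteins, and 42 genes of these cascades were followed in mouse liver. The members were the rows of the deposited gene table with the symbol of a listed complement or coagulation gene, and all 42 were found among 24062 genes. Of these, 35 encode proteins made mainly by hepatocytes (18 of complement and 17 of coagulation), 6 are made by or act on macrophages and other myeloid cells, and 1, Cfd, is best known from adipocytes. Livers came from mice on a normal or a Western diet that received carbon tetrachloride (CCl4), a liver toxin, or oil alone, for 12 or 24 weeks. Each of the 8 liver libraries was 1 pool of 4 mice, and no condition had a replicate pool. Another 2 libraries came from hepatocellular carcinomas, each of 1 mouse that had both exposures for 24 weeks. Strain, sex, age and CCl4 dose are not stated in the labels.

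As background, hepatocytes secrete most plasma complement and clotting proteins, whereas C1q, the recognition unit of the classical pathway, is made by macrophages. Complement starts from C1q, mannose-binding lectins or spontaneous cleavage of C3, passes through convertases that cleave C3 and C5, and ends in a pore of C5b to C9 in the target membrane. Coagulation passes through serine proteases to thrombin, which turns fibrinogen into fibrin, while antithrombin, protein C and plasmin restrain or dissolve the clot. Several of these proteins, among them fibrinogen and C3, are acute-phase proteins that the liver makes more of during inflammation.

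Values are normalised read counts, and a change is a log2 difference with its standard error from a fit in which the pools of 12 and 24 weeks serve as repeats (2 pools against 2). Such tests weigh a change against how unevenly the conditions shifted between 12 and 24 weeks, since a shift shared by all is taken out. They do not weigh it against the spread between animals. Libraries held 23206229 to 30137802 reads. All 42 members were tested among 12648 genes; Cfd passed the filter on low values only through the pools of normal diet with CCl4. The labelled tissue held its defining markers: all 10 hepatocyte markers were detected in every library, tumours included, with a summed count of 74841 to 243566. In bulk tissue, fewer cells of a type and less RNA per cell cannot be told apart. Comparisons below that use normal diet with oil share those 2 pools.

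Sequences upstream of the fibrinogen and C8 genes are shown because these neighbouring genes gave the most even and the most uneven responses among chains of 1 protein. The 3 fibrinogen genes lie together on chromosome 3, with 11026 bases between Fgg and Fga and 6513 between Fga and Fgb; C8b and C8a lie 11130 bases apart on chromosome 4 and are read in opposite directions. Each line holds the 250 bases before the gene's start from RefSeq (GRCm38.p6), 5′ to 3′ on the gene's strand. Capitals mark GTTAAT, the core letters bound by the hepatocyte factor HNF1, or CTGGGAA, a sequence of the kind through which interleukin 6 acts on acute-phase genes, on either strand.
Fgg, chr3:83007474-83007723, plus strand: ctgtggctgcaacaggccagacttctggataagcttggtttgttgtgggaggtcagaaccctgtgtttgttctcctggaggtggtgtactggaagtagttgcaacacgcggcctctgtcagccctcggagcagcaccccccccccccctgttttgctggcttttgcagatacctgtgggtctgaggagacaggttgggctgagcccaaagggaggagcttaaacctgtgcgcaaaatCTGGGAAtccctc
Fga, chr3:83025903-83026152, plus strand: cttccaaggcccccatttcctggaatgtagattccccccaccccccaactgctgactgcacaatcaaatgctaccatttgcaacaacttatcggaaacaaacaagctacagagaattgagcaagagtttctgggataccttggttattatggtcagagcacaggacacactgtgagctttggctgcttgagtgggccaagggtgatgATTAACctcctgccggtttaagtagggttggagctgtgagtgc
Fgb, chr3:83049864-83050113, minus strand: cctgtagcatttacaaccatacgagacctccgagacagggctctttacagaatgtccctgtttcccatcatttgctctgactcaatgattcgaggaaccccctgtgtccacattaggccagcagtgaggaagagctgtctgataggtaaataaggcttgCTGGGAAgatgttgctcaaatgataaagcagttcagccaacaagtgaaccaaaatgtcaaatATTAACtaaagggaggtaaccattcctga
C8b, chr4:104766067-104766316, plus strand: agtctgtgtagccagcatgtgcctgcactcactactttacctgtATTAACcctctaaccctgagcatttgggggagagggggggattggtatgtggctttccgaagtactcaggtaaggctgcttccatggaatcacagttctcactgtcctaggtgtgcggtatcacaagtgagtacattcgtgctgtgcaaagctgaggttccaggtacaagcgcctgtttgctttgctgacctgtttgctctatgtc
C8a, chr4:104876399-104876648, minus strand: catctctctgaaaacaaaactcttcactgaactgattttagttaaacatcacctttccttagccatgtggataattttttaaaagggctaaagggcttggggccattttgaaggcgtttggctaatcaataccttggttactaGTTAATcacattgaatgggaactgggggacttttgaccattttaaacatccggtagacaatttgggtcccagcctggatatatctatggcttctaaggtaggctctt

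The HNF1 letters began 43 bases before the start in Fga and 29 in Fgb, and 107 in C8a and 206 in C8b, while Fgg held CTGGGAA 13 bases before its start and Fgb 91 before. The promoter table had a window for 32 of the 42 members. GTTAAT was in the windows of 7 of 26 hepatocyte-made members and of 1 of 5 macrophage-made members (Cfp). It was in 6.43% of all 32851 windows of this length. CTGGGAA was in 5 of the 26, against 9.10% of all windows, and TTGCNNAA, the letters of C/EBP factors, in 7 of the 26, against 9.56%. Each of these 2 was in 0 of the 5 macrophage-made windows. GAGGAA, the letters of the myeloid factor PU.1, was in 2 of 5 windows of macrophage-made members (C1qb and C1qc), against 23.3% of all windows. It was also in 2 of the 26 windows of hepatocyte-made members (F7 and Fgb). All motifs were sought on both strands. A match is a description of the letters and not a bound site.

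The livers exposed to CCl4 on a normal diet were compared with those given oil, to ask what the toxin did alone. Hepatocyte-made members fell and macrophage-made members rose. Of the 35 hepatocyte-made members 24 fell and 0 rose, and the median change of the 35 was -0.70. Of the 6 macrophage-made members 5 rose and 0 fell, with a median of 1.27. The median over all tested genes was 0.00. In all, 30 of 42 members passed the test, when 26% of all tested genes did (limma, Benjamini-Hochberg adjusted p below 0.05): 6 rose, against 15.3% of all genes, and 24 fell, against 10.6%. Of the 6, 5 were macrophage-made; the other was Cfd, which passed the filter on low values through the very group tested, so that its call supports nothing. Members are mostly abundant transcripts, and among the 1418 tested genes with a mean of at least 100, 31.9% fell; of the 31 members in that class 22 fell.

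Western diet with CCl4 against normal diet with oil gave nearly the same split. Of the hepatocyte-made members 24 fell and 0 rose, with a median of -0.63, and all 6 macrophage-made members rose, with a median of 1.58. Again 30 of 42 members passed, against 25.9% of all tested genes, with 6 higher (15.7% of all genes) and 24 lower (10.2%). Among tested genes with a mean of at least 100, 27.4% fell, and 22 of the 31 members did. The macrophage-made changes ran from 1.12 to 2.13 and the hepatocyte-made ones from -2.18 to 0.09, so the ranges of the 6 and the 35 did not overlap. A stricter list of 26 hepatocyte genes, without those that other cells are also known to make, had 20 lower and 0 higher and a median of -0.69.

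**Figure D1:**
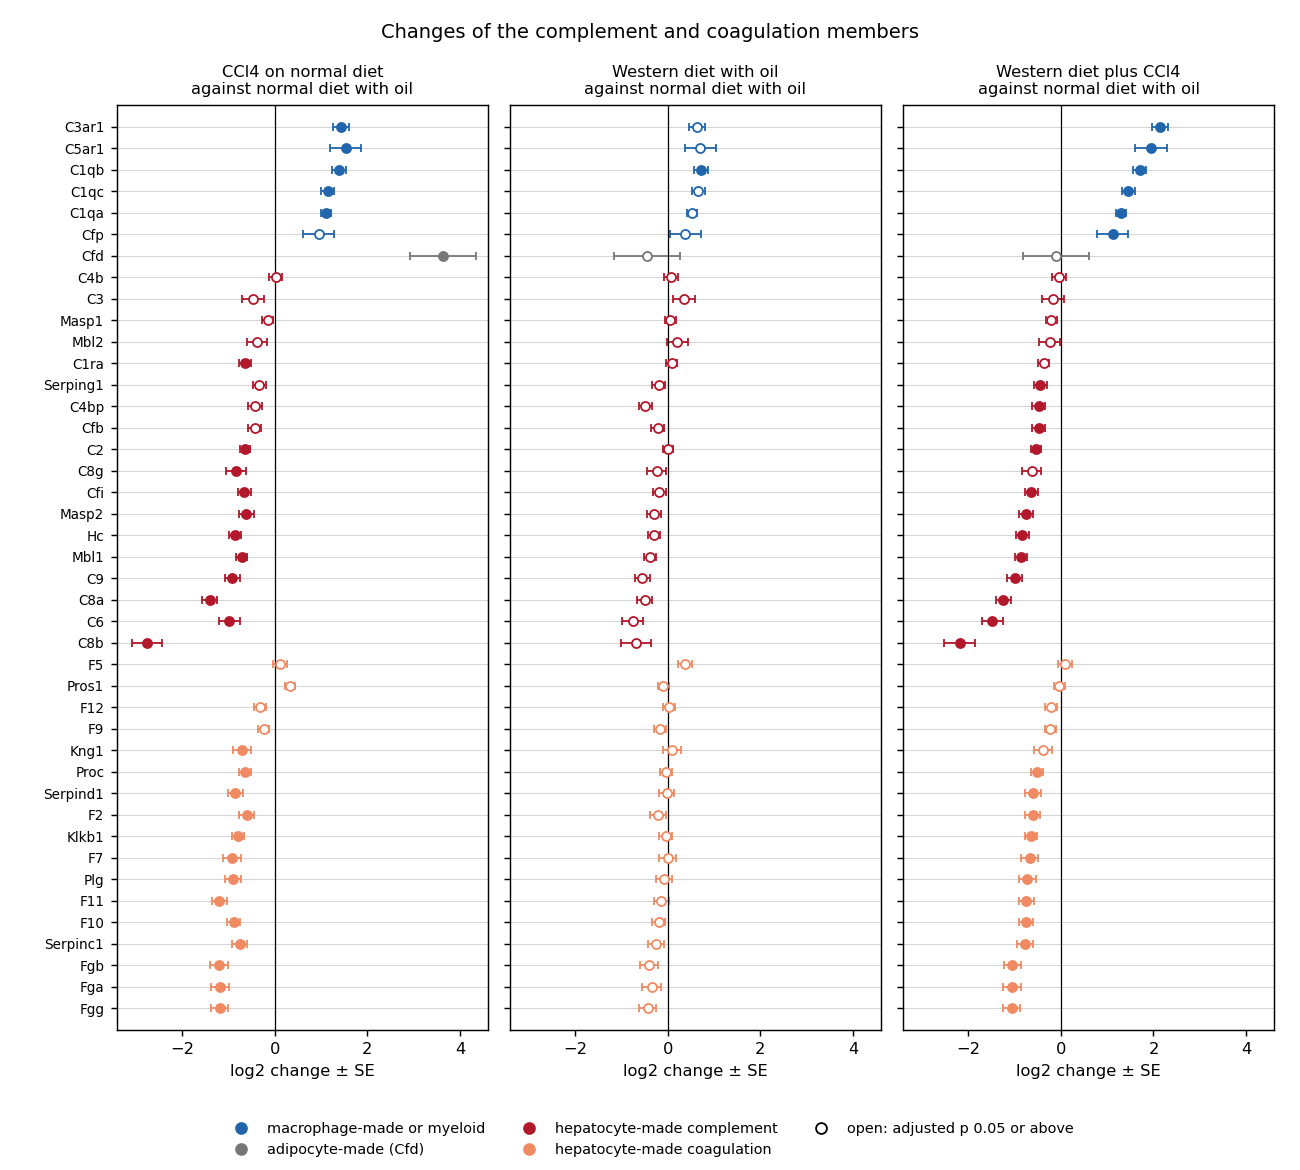
Log2 change with its standard error (x axis) of each of the 42 members (rows) in 3 comparisons with normal diet and oil, 2 pools against 2. Filled points passed the test at an adjusted p below 0.05; blue macrophage-made members lie at 1.12 to 2.13 with Western diet plus CCl4, whereas 34 of the 35 red and orange hepatocyte-made members lie below 0.

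The Western diet alone moved few members. C1qb was the 1 member that passed (0.72 ± 0.15, adjusted p = 0.0485 by limma), against 1.99% of all tested genes. C1qc (0.66 ± 0.14, adjusted p = 0.0514) and C1qa (0.52 ± 0.11, adjusted p = 0.0579) just missed. The median change was -0.18 for the hepatocyte-made and 0.65 for the macrophage-made members; the first was -0.28 without the 12-week and -0.05 without the 24-week pool of normal diet and oil. The call of C1qb was lost without any 1 of the 4 pools compared (limma adjusted p = 0.0972 to 0.476). When CCl4 was added to a Western diet, 9 of 42 members passed against 6.82% of all tested genes: C1qa, C1qb, C1qc and C3ar1 rose (4 members, against 4.29% of tested genes), and C2, Hc, C8a, C8b and Klkb1 fell (5 members, against 2.52%). None of these 9 calls held without each library in turn, and without the 24-week pool of Western diet with oil 0 members passed. Between the 2 diets under CCl4, 0 members passed, against 0.0474% of tested genes, and the median was 0.11 for the hepatocyte-made and 0.31 for the macrophage-made members. These medians moved with single pools: the first was -0.03 without the 12-week pool of both exposures, 0.03 without the 24-week pool of normal diet with CCl4 and 0.19 without the 24-week pool of both exposures. The second was 0.09 without the 12-week pool of normal diet with CCl4, 0.16 without the 12-week pool of both exposures, 0.51 without the 24-week pool of normal diet with CCl4 and 0.48 without that of both exposures. For the interaction of diet and toxin 0 members passed, against 0.103%. For duration 0 members passed, against 0% of tested genes. At an unadjusted p below 0.05 limma counted 4 members between the diets under CCl4 (against 7.03% of tested genes), 4 for the interaction (8.94%) and 13 for duration (11.7%), so the first pair of counts lies near the background. edgeR called 0 in each, against 0.0395%, 0.0712% and 0.00791% of tested genes. DESeq2 called 0, 0 and 2, against 0.530%, 1.04% and 0.712%.

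C1q binds antibody on a target and is assembled from the chains encoded by C1qa, C1qb and C1qc, which lie side by side on chromosome 4. The C1qa count at 12 and 24 weeks was 38.2 and 48.2 with normal diet and oil, 55.8 and 68.7 with Western diet and oil, 78.0 and 112 with normal diet and CCl4, and 96.7 and 119 with both; the tumours had 99.6 and 50.3. The C1qb count was 36.6 and 43.8 with normal diet and oil, 62.0 and 71.4 with Western diet and oil, 84.3 and 134 with normal diet and CCl4, and 129 and 136 with both, and 116 and 60.5 in the tumours. The C1qc count was 34.6 and 44.6, 57.5 and 68.1, 73.8 and 105, and 110.1 and 109 in the same order, and 95.1 and 51.6 in the tumours. Within each duration the 3 chains stood in 1 order of conditions, with oil below CCl4 on either diet. CCl4 on a normal diet raised C1qa by 1.11 ± 0.11, C1qb by 1.39 ± 0.15 and C1qc by 1.14 ± 0.14 (limma adjusted p = 0.000482 to 0.000966). With both exposures the rises were 1.30 ± 0.11, 1.70 ± 0.15 and 1.45 ± 0.14 (limma adjusted p = 0.000194 to 0.000289). Over the 10 libraries the count of C1qc was 0.907 to 1.14 times that of C1qa, and that of C1qb 0.910 to 1.34 times.

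The receptors for the complement fragments C3a and C5a are carried by myeloid cells. C3ar1 had counts of 2.35 and 4.12 at 12 and 24 weeks with normal diet and oil, 4.36 and 6.71 with Western diet and oil, 7.12 and 14.3 with normal diet and CCl4, and 14.1 and 21.0 with both. It rose by 1.43 ± 0.17 with CCl4 and by 2.13 ± 0.17 with both exposures (limma adjusted p = 0.000143), the largest rise among the macrophage-made members there. C5ar1 was scarce, at 1.15 and 1.05 with normal diet and oil, 2.65 and 2.22 with Western diet and oil, 2.86 and 8.61 with normal diet and CCl4, and 5.38 and 9.25 with both, and rose by 1.54 ± 0.34 and 1.94 ± 0.34. The tumours had 12.2 and 7.18 for C3ar1 and 8.09 and 2.91 for C5ar1. Properdin (Cfp), which steadies the alternative convertase, had 13.6 and 23.8 with normal diet and oil, 20.3 and 27.8 with Western diet and oil, 32.8 and 39.0 with normal diet and CCl4, and 57.0 and 28.5 with both. Its change was 0.95 ± 0.33 with CCl4 (adjusted p = 0.0666, not passing) and 1.12 ± 0.33 with both exposures (adjusted p = 0.0385), a call that was lost without any 1 of 6 libraries (limma adjusted p = 0.0502 to 0.231). The C5ar1 call with CCl4 was lost without the 24-week pool of either group (limma adjusted p = 0.132 and 0.118), and with both exposures without the 24-week pool of normal diet and oil (0.0589).

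Markers of macrophages moved with C1q and the receptors. Of 10 macrophage markers, none of them a member, 9 rose with CCl4 and 9 with both exposures, with medians of 1.33 and 1.62, and their summed count was 209 and 295 with normal diet and oil, 538 and 779 with normal diet and CCl4, and 830.5 and 816 with both. Of 7 markers of recruited macrophages, such as Trem2 and Gpnmb, 7 rose in both comparisons, with medians of 2.38 and 2.58. Of 6 markers of resident Kupffer cells 2 rose and 0 fell in both comparisons, with medians of 0.50 and 0.62. The shares of all tested genes that rose were 15.3% with CCl4 and 15.7% with both exposures. Another 2, Marco and Timd4, had changes below 0 in both, the lowest -0.78 and -1.04. Marco was 10.8 and 34.6 at 12 and 24 weeks with normal diet and oil. It was 18.2 and 6.47 with normal diet and CCl4, and 37.4 and 1.61 with both exposures. None of the macrophage markers was at 0 in any library. The mean count of the C1q chains was 0.718 to 1.13 times that of the macrophage receptor Csf1r over the 10 libraries, a narrower spread than the 3.33-fold range of the summed C1q count itself. Relative to Cd68, another macrophage marker, the C1q mean was 5.48 and 4.74 with normal diet and oil and 2.90 to 3.62 in the 4 pools with CCl4. The part of macrophage number in the C1q rise was not tested.

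**Figure D2:**
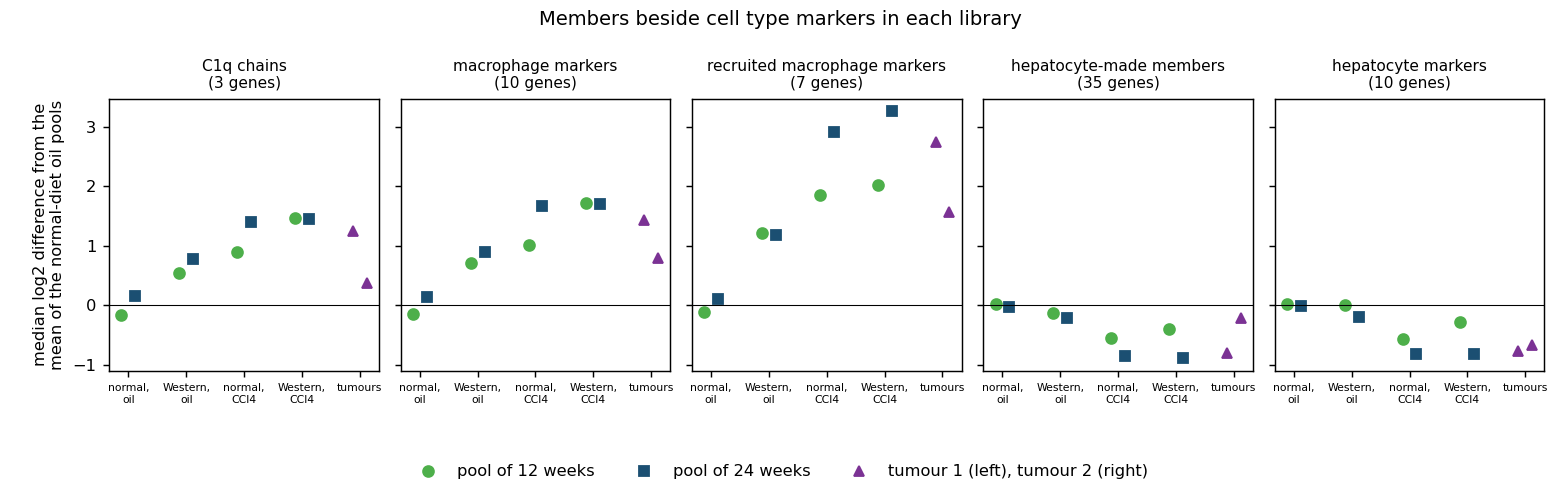
Median log2 difference (y axis) of 3 marker lists, the C1q chains and the hepatocyte-made members from the mean of the 2 normal-diet oil pools, 1 point for each of the 10 libraries (x axis: diet and treatment). C1q at 0.89 to 1.46 in the CCl4 pools lies near the macrophage markers at 1.01 to 1.72, and hepatocyte-made members at -0.89 to -0.39 near the hepatocyte markers at -0.82 to -0.27. The recruited macrophage markers lie above C1q in these pools, at 1.85 to 3.27. Kupffer cell markers, at 0.29 to 0.95 in these pools, are not plotted.

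The median change of the hepatocyte markers lay near that of the hepatocyte-made members, but a smaller part of the markers passed. Of 10 such markers 4 fell and 0 rose with CCl4, with a median of -0.67, and 3 fell with both exposures, with a median of -0.56. All 10 had a mean of at least 100. In that class 31.9% of tested genes fell with CCl4 and 27.4% with both, near the shares of the markers. Of the 31 members in the class, 22 fell in each comparison. Their summed count was 151375 and 140701 with normal diet and oil, 93623 and 79338 with normal diet and CCl4, and 112587 and 74841 with both. Alb alone held 114851 and 105693, 68362 and 58738.5, and 84121 and 54802 of these sums, in the same order. The summed count of the 35 hepatocyte-made members was 52554 and 48965 with normal diet and oil, 47254.5 and 45329 with Western diet and oil, 31749 and 27594 with normal diet and CCl4, and 36299 and 28859 with both. The sum of the hepatocyte-made members was thus 480.3 and 358 times that of the C1q chains with normal diet and oil, and 78.4 to 134 times in the 4 pools with CCl4. The part of hepatocyte content in the fall was not tested.

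The other starters of complement are serine proteases and lectins from hepatocytes. With CCl4, C1ra, a protease that C1q activates (-0.64 ± 0.12), Masp2, the protease of the lectin pathway (-0.61 ± 0.15), and the mannose-binding lectin gene Mbl1 (-0.71 ± 0.12) fell. Mbl2 (-0.39 ± 0.22, adjusted p = 0.226) and Masp1 (-0.15 ± 0.12, adjusted p = 0.387) did not pass. With both exposures Mbl1 (-0.85 ± 0.12) and Masp2 (-0.75 ± 0.15) fell, while C1ra did not pass (-0.37 ± 0.12, adjusted p = 0.0564). The 3 calls with CCl4 were lost without the 24-week pool of that group. Those of C1ra and Masp2 were also lost without the 24-week pool of normal diet and oil. The Masp2 call was lost without either pool of Western diet and oil as well. With both exposures the Masp2 call was lost without the 24-week pool of normal diet and oil or of both exposures. Mbl2 and Masp1 did not pass with both exposures. Their differences at 12 and 24 weeks were 0.29 and -0.77 for Mbl2 and -0.30 and -0.10 for Masp1. The calls of the starters thus split by source, with the 3 C1q chains higher in both comparisons. Of the 5 hepatocyte-made genes 3 were called lower with CCl4 and 2 with both exposures, and none higher. C1ra and the nearly identical C1rb can share reads, so its value is uncertain.

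The central components C3 and C4b, which the convertases are built from, did not pass in any comparison. C3 had 8037 and 7562 with normal diet and oil, 10059 and 9933 with Western diet and oil, 5748 and 5549 with normal diet and CCl4, and 7492 and 6467 with both. Both Western-diet oil pools lay above both normal-diet oil pools, and all 4 CCl4 pools lay below all 4 oil pools, though the nearest of them (7492 and 7562) nearly touched. The change was 0.36 ± 0.23 with the diet (adjusted p = 0.455), -0.46 ± 0.23 with CCl4 (adjusted p = 0.173) and -0.16 ± 0.23 with both (adjusted p = 0.634). C3 made up 15.3% and 15.4% of the summed counts of all members with normal diet and oil and 17.9% to 22.1% in the other 6 pools. C4b stayed at 1262 to 1503 in the 8 pools, with changes of 0.02 ± 0.15 and -0.04 ± 0.15. C2, which joins C4b in a convertase, fell by 0.64 ± 0.11 on the log2 scale with CCl4 and by 0.53 ± 0.11 with both. Factor B (Cfb), its counterpart in the alternative pathway, was -0.43 ± 0.14 with CCl4 (adjusted p = 0.0573) and fell with both (-0.48 ± 0.14, adjusted p = 0.0380), which was lost without any 1 of 7 libraries (limma adjusted p = 0.0770 to 0.185). C4b has a close copy, C4a, and C2 and Cfb lie 85 bases apart and overlap 1 annotated read-through gene, so the division of reads among them is uncertain.

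Cfd, the protease factor D that cleaves factor B, was high in the pools of normal diet with CCl4 and near 0 elsewhere. Its count was 45.6 at 12 weeks and 5.40 at 24 weeks in the pools of normal diet with CCl4. In the other 8 libraries it was 0.177 and 0.640 with normal diet and oil, 0.0427 and 0 with Western diet and oil, 0 and 0.661 with both exposures, and 0.0782 and 0 in the tumours. The fitted change with CCl4 on a normal diet was 3.64 ± 0.71, and with both exposures -0.11 ± 0.71. The difference between the diets under CCl4 was -3.74 ± 0.71. No test is given for Cfd, because it entered the tested genes only through the group in which it was high. Of 6 adipocyte markers, Adipoq, Lep, Retn and Plin1 were at 0 to 0.159 in all 10 libraries, and Car3, which liver also expresses, carried nearly all of the list's summed count of 58.3 to 4965. Cidea, a lipid droplet gene on that list, was 16.4 and 34.4 in the pools of normal diet with CCl4 and at most 0.919 in the other 8 libraries.

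The terminal components, which assemble the membrane pore, held the member with the largest fall in both comparisons with normal diet and oil that include CCl4, C8b. All 6 fell with CCl4 and 5 of 6 with both exposures, with medians of -0.95 and -1.12. C8b had 485 and 512 with normal diet and oil, 329 and 290.3 with Western diet and oil, 123 and 43.2 with normal diet and CCl4, and 164 and 72.4 with both. The 4 CCl4 pools lay below the 4 oil pools. C8b fell by 2.75 ± 0.33 on the log2 scale with CCl4 (limma adjusted p = 0.000941) and by 2.18 ± 0.33 with both exposures (adjusted p = 0.00217). C8a, its partner chain, had 1054 and 978, 743 and 694, 480.1 and 308, and 502 and 365 in the same order, and fell by 1.40 ± 0.16 and 1.24 ± 0.16. C8g, the third chain of C8, had 451 and 529.8, 427 and 404, 304 and 247, and 414 and 242. C8g fell with CCl4 (-0.83 ± 0.21) and did not pass with both (-0.63 ± 0.21, adjusted p = 0.0534), and its call was lost without 3 of the libraries (limma adjusted p = 0.0784 to 0.180).

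Other pore components fell less than C8b. C6 had 354 and 368 with normal diet and oil, 197 and 232 with Western diet and oil, 230.3 and 145 with normal diet and CCl4, and 110.3 and 151 with both, and fell by 0.98 ± 0.22 and 1.48 ± 0.22. Its call with CCl4 was lost without either pool of normal diet and oil or the 24-week pool of normal diet with CCl4 (limma adjusted p = 0.0536 to 0.109). C9 had 853 and 959, 630.0 and 607, 557 and 414, and 491 and 419 in the same order, and fell by 0.91 ± 0.16 and 1.003 ± 0.16. Its first call was lost without the 24-week pool of normal diet with CCl4 (adjusted p = 0.0660). Hc, the gene of C5, had 1229 and 1238, 1049 and 963, 733 and 629.7, and 737 and 655, and fell by 0.86 ± 0.13 and 0.83 ± 0.13. In the Western-diet oil pools all 6 terminal genes lay below both pools of normal diet and oil, although none passed (medians of -0.52 for the 6 and 0.02 for all tested genes); over all tested genes 24.2% had both pools lower in this way.

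**Figure D3:**
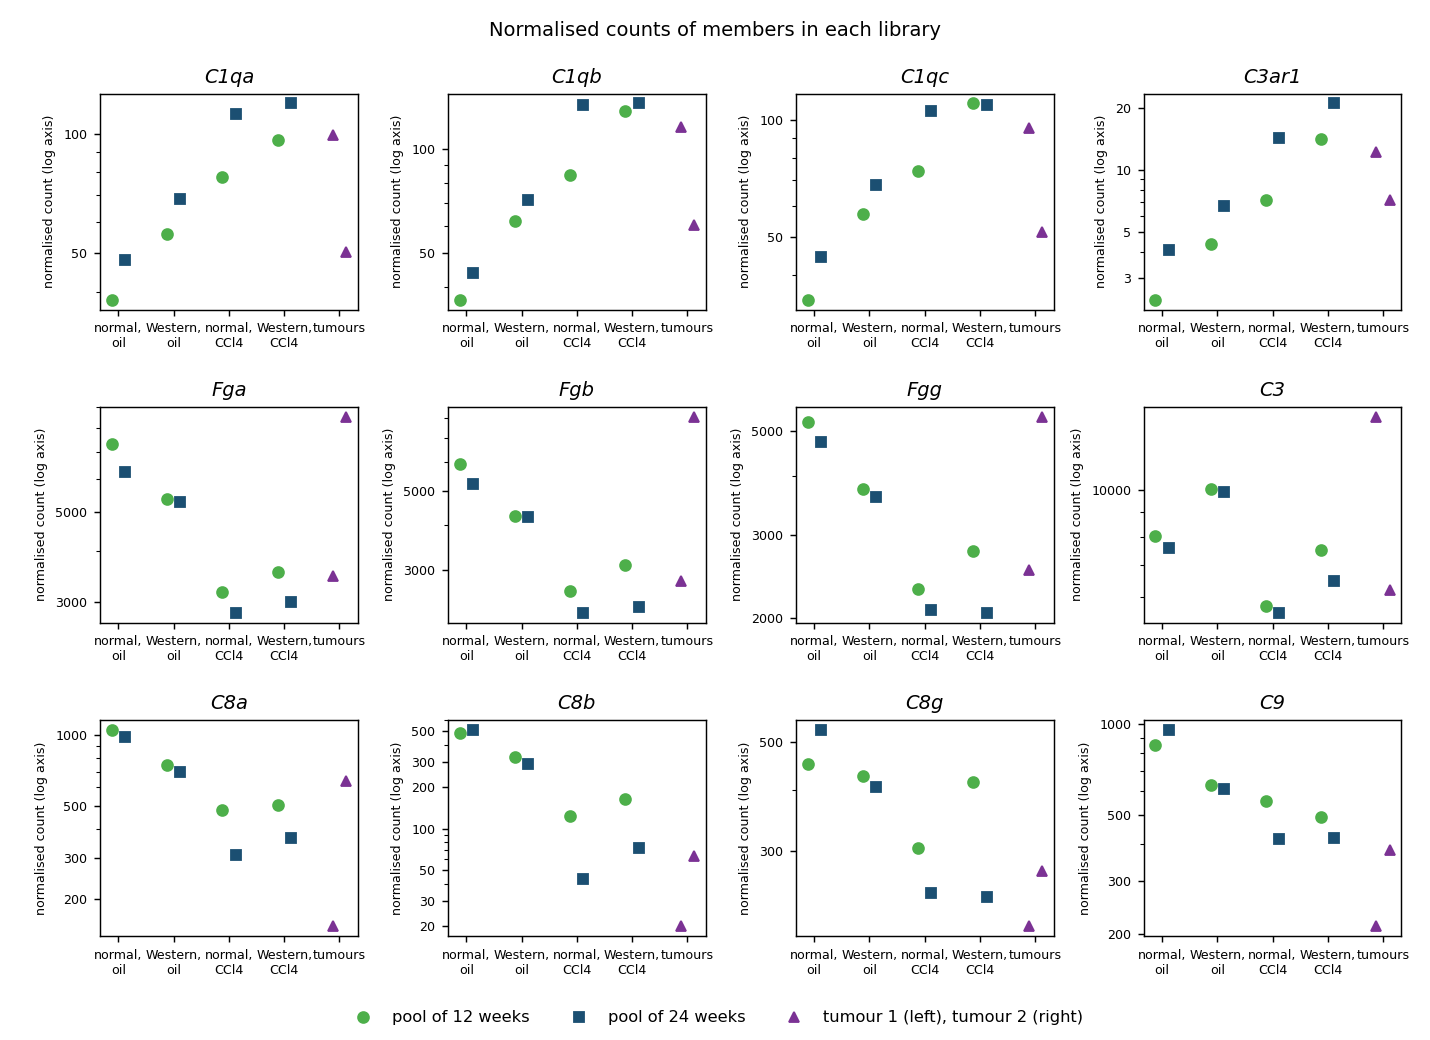
Normalised count on a log axis (y) of 12 members in each of the 10 libraries, grouped by diet and treatment (x). The C1q chains and C3ar1 are higher and C8a and C8b lower in all 4 CCl4 pools than in the 4 oil pools, while C3 is highest in tumour 1 (14231) and in the Western-diet oil pools (10059 and 9933).

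The chains of C8 and of fibrinogen differed in how evenly they moved. The level of each ratio below rests on exon lengths merged over all annotated transcripts, and only its change between libraries is read. Per kilobase of exon, C8b stood at 0.657 and 0.748 of C8a with normal diet and oil and at 0.632 and 0.597 with Western diet and oil. It stood at 0.366 and 0.200 with normal diet and CCl4, at 0.465 and 0.283 with both, and at 0.185 and 0.141 in the tumours. C8g per C8a ran from 1.04 to 2.01 in the 8 pools. By contrast Fgb per Fga ran from 0.622 to 0.687 in the 8 pools, where the highest was 1.10 times the lowest, against 3.73 times for C8b per C8a.

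**Figure D4:**
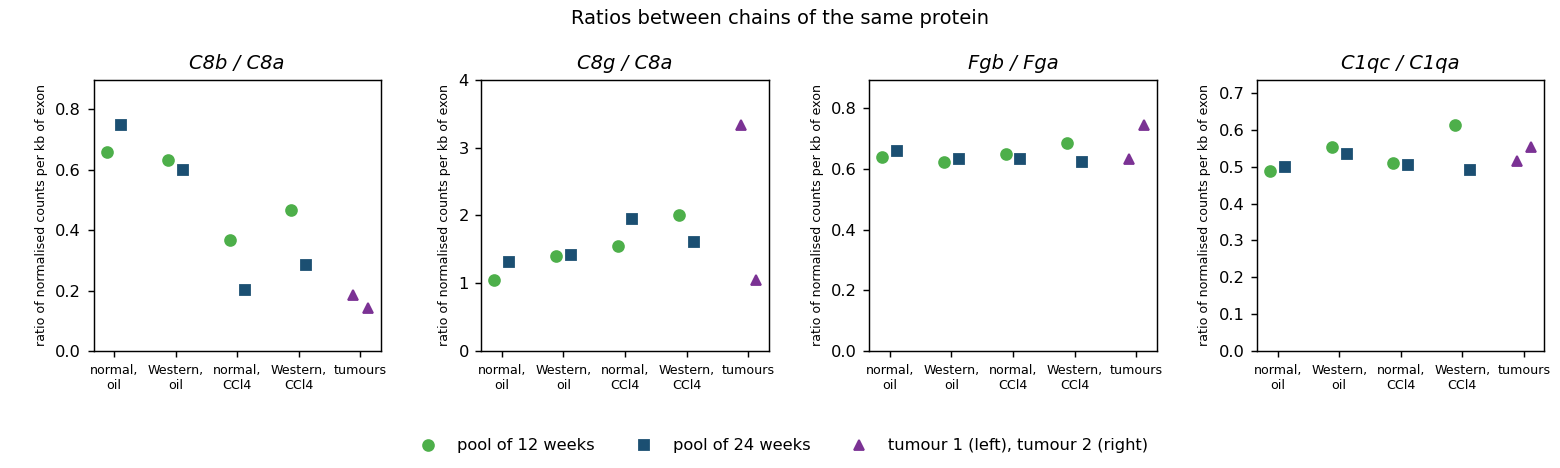
Ratio of normalised counts per kilobase of exon (y axis, from 0) between 2 chains of 1 protein in each of the 10 libraries (x axis: diet and treatment). C8b per C8a falls from 0.597 to 0.748 in the oil pools to 0.200 to 0.465 in the CCl4 pools, while Fgb per Fga stays between 0.622 and 0.746 in all 10 libraries.

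Of the 3 complement inhibitors 1 fell with CCl4 and 3 with both exposures, with medians of -0.42 and -0.48. Cfi, which cleaves active C3b, fell with CCl4 (-0.65 ± 0.14) and with both (-0.63 ± 0.14), calls that were lost without 3 libraries (limma adjusted p = 0.0734 to 0.113) and without 2 (0.0885 and 0.116). Serping1, the C1 inhibitor, and C4bp, which holds C4b in check, did not pass with CCl4 (-0.33 ± 0.14 and -0.42 ± 0.15). Both fell with the 2 exposures together (-0.45 ± 0.14, adjusted p = 0.0448, and -0.48 ± 0.15, adjusted p = 0.0422). The last pair of calls was close to the threshold and was lost without most single libraries (limma adjusted p = 0.0548 to 0.292).

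Fibrinogen is a protein of alpha, beta and gamma chains. Fga had 7337 and 6253 at 12 and 24 weeks with normal diet and oil, 5367 and 5269.7 with Western diet and oil, 3180.4 and 2827 with normal diet and CCl4, and 3562 and 2999 with both. Fgb had 5932 and 5227, 4234 and 4226, 2608 and 2269.8, and 3095 and 2361 in the same order, and Fgg had 5212 and 4739, 3759 and 3616, 2301 and 2081, and 2774 and 2049. For each chain the 4 CCl4 pools lay below the 4 oil pools. With CCl4 the 3 changes were -1.18 ± 0.20 for Fga, -1.19 ± 0.19 for Fgb and -1.18 ± 0.19 for Fgg (limma adjusted p = 0.00325 to 0.00412). With both exposures they were -1.05 ± 0.20, -1.04 ± 0.19 and -1.06 ± 0.19 (limma adjusted p = 0.00468 to 0.00600). The Fga and Fgb calls were lost without the 24-week pool of normal diet with CCl4 in the first comparison (0.0655 and 0.0546) and without that of normal diet with oil in the second (0.0503 and 0.0528). Per kilobase of exon with normal diet and oil, the highest values were those of Fgg (2377) and Fga (2258). C3 (1517), Fgb (1464) and plasminogen (815) followed. Exon length merges all annotated exons of a gene, so this order rests on the annotation and need not be that of transcript abundance. By count Fgb stood above Fgg in both of these pools.

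Most of the clotting zymogens fell with CCl4. There 6 of the 9 procoagulant members fell: F7 (-0.92 ± 0.19), F10 (-0.88 ± 0.14), F11 (-1.20 ± 0.16), prothrombin F2 (-0.60 ± 0.17), prekallikrein Klkb1 (-0.79 ± 0.13) and kininogen Kng1 (-0.70 ± 0.19). F9 (-0.24 ± 0.12), F12 (-0.32 ± 0.13) and the cofactor F5 (0.12 ± 0.15) did not pass. F11 had 84.3 and 74.6 with normal diet and oil, 65.5 and 79.5 with Western diet and oil, 39.1 and 29.6 with normal diet and CCl4, and 52.0 and 42.3 with both. F2 had 2244 and 2246, 2065 and 1819, 1583 and 1376, and 1717 and 1268 in the same order, and its call was lost without any of 5 libraries (limma adjusted p = 0.0703 to 0.207). With both exposures 5 of 9 fell, with F11 at -0.75 ± 0.16 and F2 at -0.61 ± 0.17, and Kng1 did not pass (-0.38 ± 0.19, adjusted p = 0.171). All 5 of these calls were lost without the 24-week pool of normal diet and oil (limma adjusted p = 0.0620 to 0.240); with CCl4 the calls of F10 and F11 held in every such fit, and those of F7, Klkb1 and Kng1 were lost without the 24-week pool of normal diet with CCl4 (0.0575 to 0.197). Kng1 has a close copy, Kng2, that may share its reads.

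Anticoagulant and fibrinolytic members fell alongside the procoagulant ones. Antithrombin (Serpinc1, -0.75 ± 0.17), heparin cofactor II (Serpind1, -0.85 ± 0.16), protein C (Proc, -0.65 ± 0.13) and plasminogen (Plg, -0.90 ± 0.18) fell with CCl4. With both exposures their changes were -0.77 ± 0.17, -0.60 ± 0.16, -0.52 ± 0.13 and -0.72 ± 0.18, and all 4 passed. All 4 calls were lost in both comparisons without the 24-week pool of normal diet and oil. They were also lost without the 24-week pool of normal diet with CCl4 in the first comparison, and without that of both exposures in the second. Protein S (Pros1), which endothelial and other cells make too, had 0.33 ± 0.11 with CCl4 (adjusted p = 0.0603) and -0.03 ± 0.11 with both. The median change with CCl4 was -0.75 for these 5 members and -0.70 for the 9 procoagulant members.

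At 24 weeks most hepatocyte-made members lay further below their controls than at 12 weeks. The difference between CCl4 and oil on a normal diet was more negative at 24 weeks in 31 of 35 members, against 52.2% of all tested genes, with medians of -0.83 at 24 and -0.59 at 12 weeks. The same held for 30 of 35 on a Western diet, against 50.6% of tested genes, with medians of -0.62 and -0.31. Each duration is 1 pool against 1, so this difference was not tested, and the 2 comparisons share no pool. The summed hepatocyte marker count was lower at 24 than at 12 weeks in all 4 groups; with Western diet and oil it was 136654 and 116383, and the other groups' sums are given above. For the macrophage-made members the medians were 1.13 at 12 and 1.40 at 24 weeks on a normal diet and 0.99 and 0.85 on a Western diet.

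The 2 tumours were compared with the pools of Western diet plus CCl4, and 0 of 42 members passed, against 0.972% of all tested genes. At an unadjusted p below 0.05 limma counted 14 members, against 16.7% of all tested genes; edgeR called 0 and DESeq2 9, against 5.89% of tested genes by DESeq2. The tumours differed from each other: 14 of 42 members were at least 2-fold apart, against 14.4% of all tested genes. C8a had 154 in tumour 1 and 637 in tumour 2, C8b 19.9 and 63.1, C3 14231 and 6203, F11 63.1 and 196, Fga 3474 and 8538, Fgb 2787 and 8058, and Fgg 2523 and 5354. Tumour 2 was thus above tumour 1 for C8, F11 and fibrinogen and below it for C3. Hc had 776 in tumour 1 and 898 in tumour 2, F2 1060.5 and 2124, and Cfp 29.4 and 27.2. The C8a change on the log2 scale was 0.73 without tumour 1 and -1.31 without tumour 2, so its sign turned with the tumour kept. Tumour 2 also had the higher summed hepatocyte marker count, 243566 against 81850, and the lower C1q sum, 162 against 310.5. Alb alone held 203789 of the marker sum in tumour 2 and 66122 in tumour 1. The median log2 difference of the 10 markers from normal diet with oil was -0.66 in tumour 2 and -0.77 in tumour 1. Without tumour 1, 13 members passed as higher and 6 as lower, when 18.9% of all tested genes passed; without tumour 2 it was 5 and 7, when 17.9% did.

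Both tumours lay below all 8 pools for 5 members, against 9.79% of all tested genes. These were the lectins Mbl1 (76.1 and 51.1, pools 110.3 to 228) and Mbl2 (20.6 and 91.2, pools 202 to 462), the lectin protease Masp1 (37.3 and 53.3, pools 56.8 to 76.6), C6 (87.2 and 75.3, pools 110.3 to 368) and C9 (212 and 382, pools 414 to 959). Both lay above all 8 pools for C2 (176 and 168, pools 89.3 to 159.9), F5 (852 and 780.2, pools 405 to 646) and Kng1 (2909 and 5939, pools 1417 to 2749), against 10.2% of all tested genes. These shares of 42 members are near the background. The change in the fit was -2.53 ± 0.63 for Mbl2 (adjusted p = 0.113) and 0.79 ± 0.15 for C2 (adjusted p = 0.0564).

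**Figure D5:**
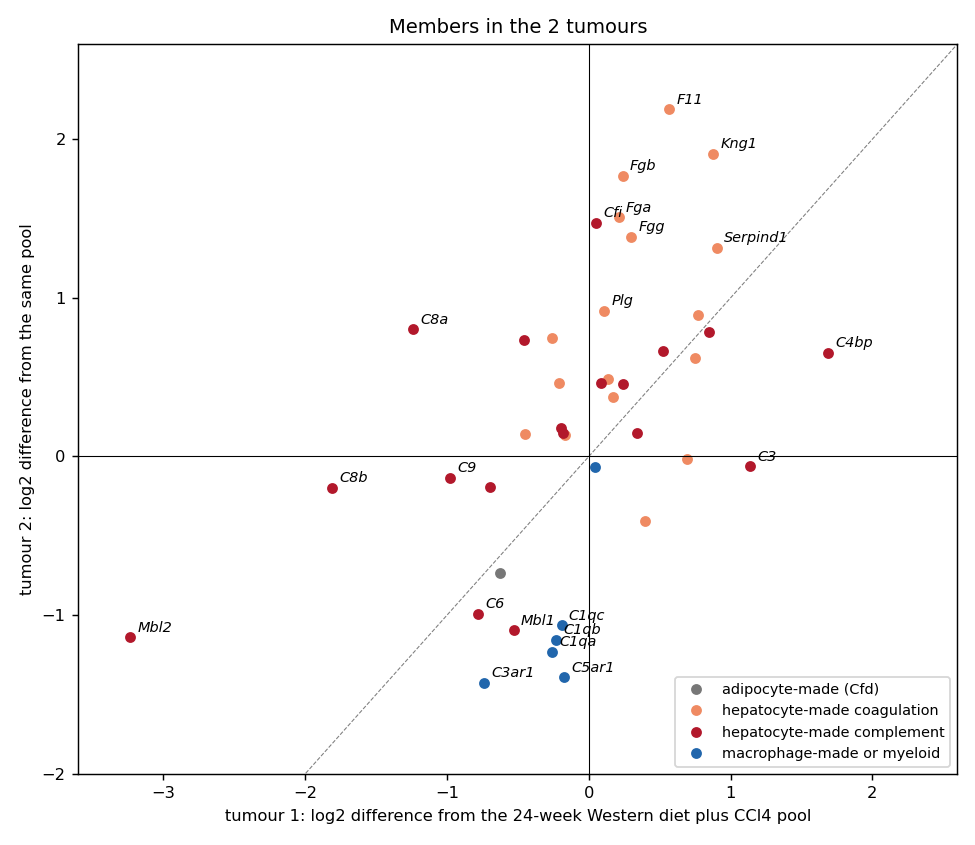
Log2 difference of each of the 42 members in tumour 1 (x) and tumour 2 (y) from the 24-week pool of Western diet plus CCl4, 1 point per member, with the diagonal marking equal values. C8a lies at -1.24 and 0.80 and F11 at 0.57 and 2.19, and 12 of the 42 members fall on opposite sides of the pool in the 2 tumours.

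Other genes of these cascades, from lists of regulators, receptors and vessel-wall factors, moved in both directions in the same comparisons. Over all tested genes 15.3% rose and 10.6% fell with CCl4, and 15.7% rose and 10.2% fell with both exposures. Of 24 tested complement genes outside the members, 5 rose and 6 fell with CCl4 and 6 rose and 9 fell with both exposures. Itgax and Vsig4 of this list also stood on the lists of recruited macrophage and Kupffer cell markers. Cfhr2, of the factor H-related family (-1.14 ± 0.20), vitronectin (Vtn, -0.91 ± 0.18), which blocks the pore, and Cpn2, a subunit of the enzyme that inactivates C3a and C5a (-0.60 ± 0.13), fell with CCl4. Itgb2, the beta chain of the complement receptor integrins (1.56 ± 0.15), and the lectin Colec11 (0.63 ± 0.16) rose. With both exposures Vsig4, a complement receptor of Kupffer cells, rose by 0.67 ± 0.19. Of 27 tested coagulation genes outside the members, 10 rose and 8 fell with CCl4, and 10 rose and 9 fell with both. The plasmin inhibitor Serpinf2 (-1.09 ± 0.15), Fgl1 (-1.01 ± 0.22), Tfpi2 (-0.72 ± 0.15) and Vkorc1, the vitamin K enzyme that clotting factors depend on (-0.65 ± 0.14), fell with CCl4. Below the abundance set for naming, and chosen after its values were seen, Plat, the tissue plasminogen activator, had 0.266 and 0.549 with normal diet and oil and 4.10 and 8.58 with CCl4, a rise of 2.32 ± 0.28. Markers of other liver cells that make vessel-wall factors moved too: 4 of 6 endothelial markers and 7 of 8 stellate cell and fibroblast markers rose with CCl4, with medians of 0.74 and 1.35.

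The scaling of the libraries bears on the count of falls. With the libraries rescaled to equal totals the median of all tested genes moved to 0.22 with CCl4, 0.23 with both exposures and 0.16 for CCl4 on a Western diet, and 22, 13 and 2 hepatocyte-made members then fell, with 1 higher (Pros1) in the first comparison. Relative to the median of all genes, the hepatocyte-made members stood at -0.68, -0.58 and -0.44 with equal totals, which shift all genes of a library alike, and at -0.71, -0.61 and -0.46 as deposited. With quantile normalization they stood at -0.37, -0.26 and -0.19. With equal totals 84.2%, 87.8% and 86.5% of all calls were higher, against 59.0%, 60.5% and 63.0% as deposited. With quantile normalization these shares were 54.7%, 55.6% and 64.3%. Of the 6 macrophage-made members 6, 6 and 5 rose with equal totals, against 5, 6 and 4 as deposited. With the tumours added to the fit, 2 members passed with CCl4 and 5 with both exposures (limma), while the calls over all tested genes fell to 437 and 796. Leaving out single libraries, 11 of 30 member calls held in every fit for CCl4 and 11 of 30 for both exposures, among them the 3 C1q chains, C3ar1, C8a, C8b, Fgg and Hc in each. The count was 12 without the 24-week pool of normal diet with CCl4 and 17 without that of normal diet with oil in the first comparison, and 12 without that of normal diet with oil and 16 without that of Western diet plus CCl4 in the second. Calls over all tested genes fell in the same fits, from 3285 to 1106 and 1021 in the first comparison and from 3278 to 1214 and 1669 in the second.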

How the data were processed

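Poly-A RNA from flash-frozen tissue was made into libraries with a TruSeq kit from 200 ng of total RNA, per the labels' protocols. The authors aligned reads with STAR to mm10, per the submitters' processing notes; no source used here names the STAR version, the counting tool, its gene models or the scaling. Values in the deposited table are a normalised signal. Dividing each deposited value by the smallest step of its library gave whole reads to within 0.01 (100% of values), so reads were recovered; the implied scaling factors ran from 0.868 to 1.18. A value of 0 allows up to 3 reads, which covers counting error only.

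Values were taken as log2(value + 1), which understates changes of scarce genes, and genes with at least 1 in at least 2 of 10 libraries were tested with limma 3.58.1 in R 4.3.3 (eBayes with trend, two-sided, Benjamini-Hochberg over all tested genes, threshold 0.05). The fit had 1 mean for each diet and treatment together, plus duration as a term, which pairs the pools by the duration in the labels; liver comparisons had 3 residual degrees of freedom and the tumour comparison, on all 10 libraries, 4. The fit was tested on simulated data. On the recovered reads edgeR 4.0.16 called 3268 genes and DESeq2 1.42.0 3382 for CCl4 on a normal diet, against 3285. Members with a called change of at least 1 on the log2 scale, the C1q and fibrinogen chains, C3, Hc and F2 are given in every library. From the lists of other complement and coagulation genes, up to 4 called genes in each direction and no scarcer on average than the median tested gene are named, apart from items that are not reported here. The members, lists and rules were chosen with earlier results of these data known. Exon lengths, overlaps and distances between genes come from GENCODE vM21 (GRCm38). An exon length counts every annotated exon base of a gene once, over all its transcripts. Of the marker symbols, Ly6g was not matched.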

Additional observations from a re-analysis of the deposited data

Results flagged for a closer look

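For 8 members the Western diet moved both oil pairs one way and both CCl4 pairs the opposite way, 8 of 42 against 15.2% of all tested genes, and some of the single differences were close to 0. The diet effect under CCl4 minus that under oil was 1.26 on the log2 scale for C8b, 0.65 for C8a, 0.55 for Fgb, 0.47 for Fga, 0.33 for F10, 0.33 for Hc, 0.25 for Plg and -0.41 for F5. C8b was lower with the diet under oil by 0.56 and 0.82 at 12 and 24 weeks, and higher under CCl4 by 0.41 and 0.73. The interaction term of the limma fit passed for none of the 8 (adjusted p = 0.461 to 0.780). Another 2 members had diet effects of opposite sign at 24 and 12 weeks under both treatments, against 8.94% of all tested genes: the difference, 24 minus 12 weeks, was 0.27 for Masp1 and -0.16 for F12. That difference was not tested, since each duration has 1 pool per condition. The counts of 8 and of 2 among the 42 members are near the shares of all tested genes, so neither pattern is particular to the members.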

How the results depend on the processing

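None of the alternatives run reversed a member called in the main fit. Calls over all tested genes moved too. For CCl4 on a normal diet they went from 3285 to 1353 with no filter and 437 with all 10 libraries. For both exposures 3278 became 1887 with no filter, 3608 with equal totals, 2563 with quantile normalization and 796 with all 10 libraries. For CCl4 on a Western diet 862 became 3 with no filter, 474 with quantile normalization and 592 without the trend. With all 10 libraries it was 6 and with DESeq2 1319. For CCl4 on a normal diet 30 members were called; the count was 17 with no filter and 2 with all 10 libraries in 1 fit (C8b and C3ar1), and 12 to 34 leaving out single libraries. For both exposures (30 called) it was 14 with no filter, 19 with equal totals, 18 with quantile normalization, 5 with all 10 libraries, and 12 to 32 leaving out libraries. For CCl4 on a Western diet (9 called) it was 0 with no filter, 4 with quantile normalization, 5 without the trend, 0 with all 10 libraries, 25 with DESeq2, and 0 to 17 leaving out libraries. For the diet with oil (1 called) it was 3 with a pseudocount of 0.1 and with equal totals (the 3 C1q chains), 0 with no filter, the stricter filter, quantile normalization, no trend or all 10 libraries, 7 with DESeq2, and 0 to 3 leaving out libraries. For tumours (0 called) it was 9 with DESeq2 and 0 to 19 leaving out libraries. For duration (0 called) DESeq2 gave 2 (C1qa and C3ar1), against 0.712% of tested genes. For the diets under CCl4 and for the interaction (0 called each) leaving out libraries gave 0 to 1, the 1 being Cfd, which entered only through its high group. Without the replicate block, that is with the duration term left out, the counts were 28 for CCl4 on a normal diet, 21 for both exposures, 1 for CCl4 on a Western diet, 0 for the diet with oil and 2 for tumours (C2 and Mbl2). Over all tested genes the counts without that term were 2722, 2771, 203, 121 and 388 in the same order. For the diet with oil, calls over all tested genes went from 252 to 325 with a pseudocount of 0.1. They were 279 with equal totals, 129 with quantile normalization and 570 with DESeq2. With quantile normalization 16 and 12 hepatocyte-made members fell with CCl4 and with both exposures. A lone pool left by omitting a library was assumed to vary like the other groups. Recovered depth limits Cfd and C5ar1 most.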
